A study of Mus musculus with 5 samples.

Results

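The SLAM receptors, the adaptor SAP and the kinase Fyn were examined in natural killer T (NKT) cells of the mouse thymus, with and without interleukin-15. The group holds 9 genes of 20022 with a named probe: Slamf1, Slamf6, Slamf7, Ly9, Cd244, Cd48, Cd84, Sh2d1a (SAP) and Fyn. Its members were taken as every non-control probe whose RefSeq transcript maps to these symbols, which gave 13 of the 55681 probes. Cd244 is listed as Cd244a in the current RefSeq annotation. All 9 genes were well above background on all 5 arrays and entered the test with 11989 genes in all.

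The 5 samples were 2 from IL15-/- mice (IL15ko), which lack the cytokine in every cell, and 3 from wild-type mice, all on the C57BL/6 background. Each sample pooled 10 thymi, was enriched for T cells and sorted for CD3e-positive, CD1d-tetramer-positive cells, and each was hybridised to 1 array of 1 colour. The sort takes NKT cells as a whole and does not part their subsets. The labels do not say whether the pools of a group were prepared apart, so the p-values reflect no more than the spread among these 5 samples, and that spread may be technical.

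NKT cells carry a T-cell receptor for lipids that CD1d presents. In mice they are selected in the thymus by CD1d on neighbouring double-positive thymocytes rather than on epithelium, and contacts between SLAM family receptors on both cells supply a second signal. The cytoplasmic tails of most of these receptors bind SAP, a small SH2-domain adaptor that brings in the Src-family kinase Fyn, and mice without SAP or Fyn have few or no NKT cells. Most SLAM receptors bind their own kind, whereas CD244 binds CD48.

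Among whole-series facts, 33.9% to 45.1% of probes were well above background on IL15ko arrays and 44.6% to 49.6% on wild-type arrays, with IL15ko 2 the dimmest. The probe for Il15 was detected (flagged well above background) on 0 arrays, so the genotype labels could not be checked with it. Of the markers of T and NKT cells, 10 of 10 were well above background on all 5 arrays (2 rose, 1 fell and 7 did not pass), with a summed linear level of 126 to 131 in IL15ko and 133 to 137 in wild-type. Cd3e and the T-cell kinase gene Lck were well above background on all 5 arrays, with log2 differences of -0.05 (limma adjusted p = 0.814) and 0.01 (adjusted p = 0.973). The other markers differed more: Zbtb16 and Cd5 rose (1.501 and 0.66) and Cd2 fell (-1.096). Cd3d, Cd3g and Cd247 had -0.26, -0.77 and -0.49 (adjusted p = 0.294, 0.235 and 0.595). Il2rb had -1.56 (adjusted p = 0.0543) and Thy1 had 0.30 (adjusted p = 0.183). Wild-type 1 and 2 were the closest arrays, their log2 differences over tested genes having a robust SD of 0.170, against 0.344 and 0.376 for each with wild-type 3. The IL15ko pair lay at 0.381.

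Without IL-15, NKT cells had more Slamf6 mRNA and less Slamf7 and Cd48 mRNA, while Sh2d1a (SAP) and Fyn did not pass the test. Slamf6 was 2.95-fold higher in IL15ko (95% confidence interval 2.29 to 3.80), Slamf7 was 7.99-fold lower (5.16 to 12.4) and Cd48 was 1.99-fold lower (1.53 to 2.60). In all, 1 of the 9 members was called higher and 2 were called lower by limma at a Benjamini-Hochberg adjusted p under 0.05, beside 3.75% and 3.58% of all tested genes (7.33% in either direction). At an unadjusted p under 0.05 there were 5 of 9, beside 27.5% of all tested genes. The 2 groups' values were fully apart in 9 of 9 members, beside 47.2% of all tested genes. The median log2 difference (IL15ko minus wild-type, as throughout) was 0.27 over the members and 0.01 over all tested genes. These counts changed with the arrays and settings: without wild-type 1 none of the members passed, without IL15ko 2 only Slamf7 did, and with a normexp background correction or without the filter on dim probes 0 passed. In a fit without an IL15ko array, the 1 that is left is assumed to vary like the wild-type arrays, which alone give the spread. In sorted bulk samples, fewer cells of a type and less RNA per cell cannot be told apart.

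**Figure D1:**
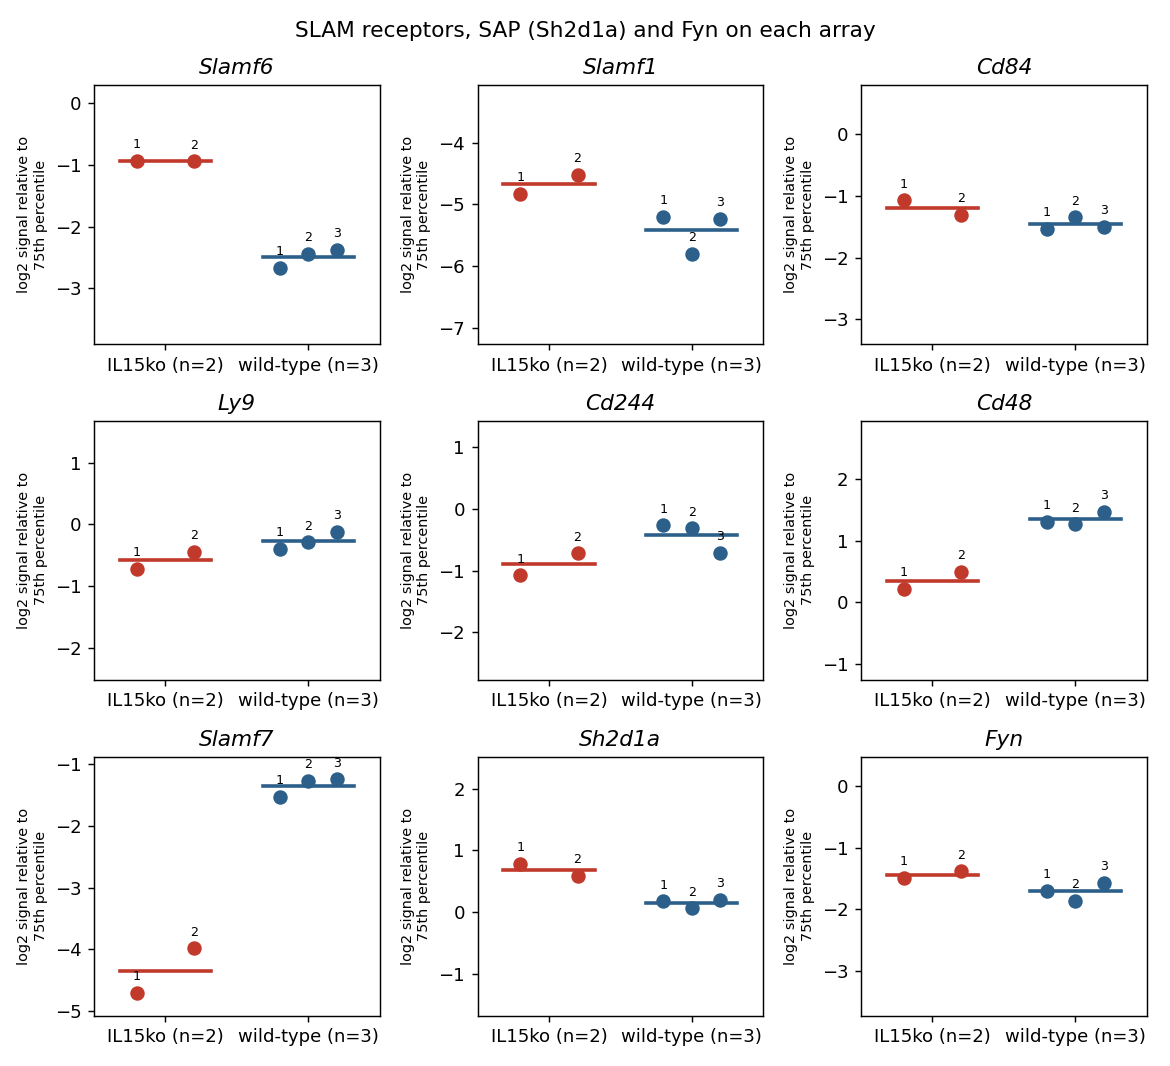
Each panel plots 1 gene, with the log2 signal relative to the array's 75th percentile on the vertical axis, IL15ko (2 arrays) left of wild-type (3 arrays). Points are arrays with their replicate number, lines are group means, and all panels span the same number of log2 units. Both IL15ko points lie above all wild-type points for Slamf6, Slamf1, Cd84, Sh2d1a and Fyn, and below them for Ly9, Cd244, Cd48 and Slamf7.

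Values below are log2 signals relative to each array's 75th percentile, so a higher number means more signal. Levels of different probes are not compared, except that the summed levels of the lists add them and so depend on each probe's brightness. Those sums take the brightest probe of each gene, detected or not. Slamf6 (Ly108), which with SLAM itself carries the thymocyte contact needed for NKT selection in mice, had -0.94 and -0.94 on IL15ko arrays 1 and 2, against -2.67, -2.45 and -2.37 on wild-type arrays 1, 2 and 3. Both IL15ko arrays were thus above every wild-type array and nearly equal to each other. Slamf6 averaged -0.94 ± 0.0029 in IL15ko (SD, n = 2) and -2.50 ± 0.15 in wild-type (SD, n = 3), a log2 difference of 1.56 ± 0.14 (SE, limma adjusted p = 0.0103). Only 1.07% of tested genes had a larger rise. Its other probe had -1.41 and -1.35 on the IL15ko arrays, against -3.05, -3.17 and -3.34 on the wild-type arrays. That gave a log2 difference of 1.81 ± 0.16 with an adjusted p of 0.0226 over all 26468 probes that passed the filter. Without wild-type 1 the adjusted p of Slamf6 was 0.0569 and without IL15ko 2 it was 0.0563, with log2 differences of 1.47 and 1.56. Genes of double-positive thymocytes, which also carry Slamf6, were listed too, and their part in the rise was not tested. Of the 11 on that list, 5 were tested, of which Ccr9, Themis and Sox4 rose and 2 (Cd4 and Dntt) did not pass. Both were detected on all 5 arrays, Cd4 with a log2 difference of 0.87 (limma adjusted p = 0.0530) and Dntt with 0.08 (adjusted p = 0.959). The summed linear level of the list lay between 4.92 and 5.39 in IL15ko, against 2.11 to 2.53 in wild-type. Most of that sum came from Cd4, which did not pass, and Ccr9 on every array. Rag1, Rag2, Ptcra, Cd8a and Cd8b1, which define that stage, were detected above background on 0 arrays.

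Slamf7 (CRACC), a receptor of NK cells and other cytotoxic lymphocytes, had -4.71 and -3.98 on IL15ko arrays 1 and 2, against -1.53, -1.27 and -1.24 on wild-type arrays 1, 2 and 3. The IL15ko arrays were far below all wild-type arrays and differed from each other more than those did. Slamf7 averaged -4.34 ± 0.51 in IL15ko (SD, n = 2) and -1.35 ± 0.16 in wild-type (SD, n = 3), a log2 difference of -2.998 ± 0.25 (SE, limma adjusted p = 0.00881). Of all tested genes, 0.259% had a larger fall. It had 1 probe, well above background on all 5 arrays. The lowest signal well above background lay at -6.48 and -4.92 on IL15ko arrays 1 and 2, so on IL15ko 2 Slamf7 was not far above that limit. With a normexp background correction the log2 difference was -1.81 (adjusted p = 0.117), and without wild-type 1 it was -3.09 (adjusted p = 0.0506). Several NK-cell genes fell as well. Of the 10 on that list, 8 were tested, of which 6 fell (Klra8, Klre1, Klra4, Klrk1, Klrb1c and Gzma) and 2 (Itgam and Irf8) did not pass. Klrk1 was detected on 3 wild-type arrays and 0 IL15ko arrays, so it entered the test only through the group where it is high, while the other 5 were detected on all 5 arrays. Of those that did not pass, Itgam had a log2 difference of 0.70 (limma adjusted p = 0.312) and Irf8 one of -0.59 (adjusted p = 0.0699). The summed linear level of all 10 genes on the list lay between 8.56 and 16.0 in IL15ko, against 30.5 to 30.8 in wild-type. Itgam was the largest part of that sum on both IL15ko arrays (log2 signals of 2.14 and 3.39). The range in IL15ko thus does not show the level of the genes that fell. Ncr1, which marks NK cells, passed the background flag on 0 arrays, and Eomes passed it on 1. NKT cells carry several of these genes too, and the part of NK cells in the fall of Slamf7 was not tested.

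Cd48, the widely expressed GPI-anchored ligand of CD244 and, in mice, of CD2, had 0.22 and 0.49 on IL15ko arrays 1 and 2, against 1.31, 1.27 and 1.47 on wild-type arrays 1, 2 and 3. The groups were well apart. Cd48 averaged 0.36 ± 0.19 in IL15ko (SD, n = 2) and 1.35 ± 0.11 in wild-type (SD, n = 3), a log2 difference of -0.995 ± 0.15 (SE, limma adjusted p = 0.0271). Its other probe had -0.68 and -0.35 on the IL15ko arrays, against 0.18, 0.36 and 0.67 on the wild-type arrays, a log2 difference of -0.92 ± 0.22. In the fit over single probes neither probe passed (adjusted p = 0.0572 and 0.104). The call of Cd48 was also lost without wild-type 1, wild-type 2, IL15ko 1 or IL15ko 2, with adjusted p of 0.113, 0.0839, 0.0675 and 0.0723, where the last 2 take the spread from the wild-type arrays alone. Cd2, which encodes the other partner of CD48, was on the list of T-cell markers. The brighter of its 2 probes had a log2 difference of -1.096 ± 0.15 (limma adjusted p = 0.0220), and its other probe is not reported here.

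Cd244 (2B4), the receptor that binds CD48 and acts in NK cells and cytotoxic T cells, did not pass. It had -1.08 and -0.72 on IL15ko arrays 1 and 2, against -0.27, -0.31 and -0.71 on wild-type arrays 1, 2 and 3. IL15ko 2 and wild-type 3 were nearly level. The log2 difference was -0.47 ± 0.21 with a 95% confidence interval of -0.99 to 0.05 (adjusted p = 0.216).

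Of the remaining receptors, none passed. Slamf1 (SLAM, CD150), which signals with Slamf6 in NKT selection, had -4.83 and -4.52 on IL15ko arrays 1 and 2, against -5.21, -5.80 and -5.23 on wild-type arrays 1, 2 and 3. Its probe was dim, and the lowest signal well above background lay at -6.48 and -4.92 on IL15ko arrays 1 and 2 and at -6.17, -6.17 and -7.22 on wild-type arrays 1, 2 and 3, so on IL15ko 2 and wild-type 2 it was close to the limit of detection. The log2 difference was 0.74 ± 0.24 (95% confidence interval 0.13 to 1.34, adjusted p = 0.127), and 0.54 without wild-type 2. Cd84, a self-binding receptor that stabilises T-cell and B-cell contacts, had -1.07 and -1.31 on the IL15ko arrays, against -1.53, -1.35 and -1.50 on the wild-type arrays. IL15ko 2 and wild-type 2 differed by little. Its log2 difference was 0.27 ± 0.14 (-0.09 to 0.63, adjusted p = 0.288), and its dim other probe, below the detection limit on IL15ko 2, had one of 0.41 ± 0.20. Ly9 (CD229), whose loss in mice raises the number of innate-like T cells, had -0.72 and -0.44 on the IL15ko arrays, against -0.39, -0.29 and -0.12 on the wild-type arrays. The log2 difference was -0.31 ± 0.16 (-0.72 to 0.09, adjusted p = 0.269), with -0.41 ± 0.20 for its other probe.

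**Figure D2:**
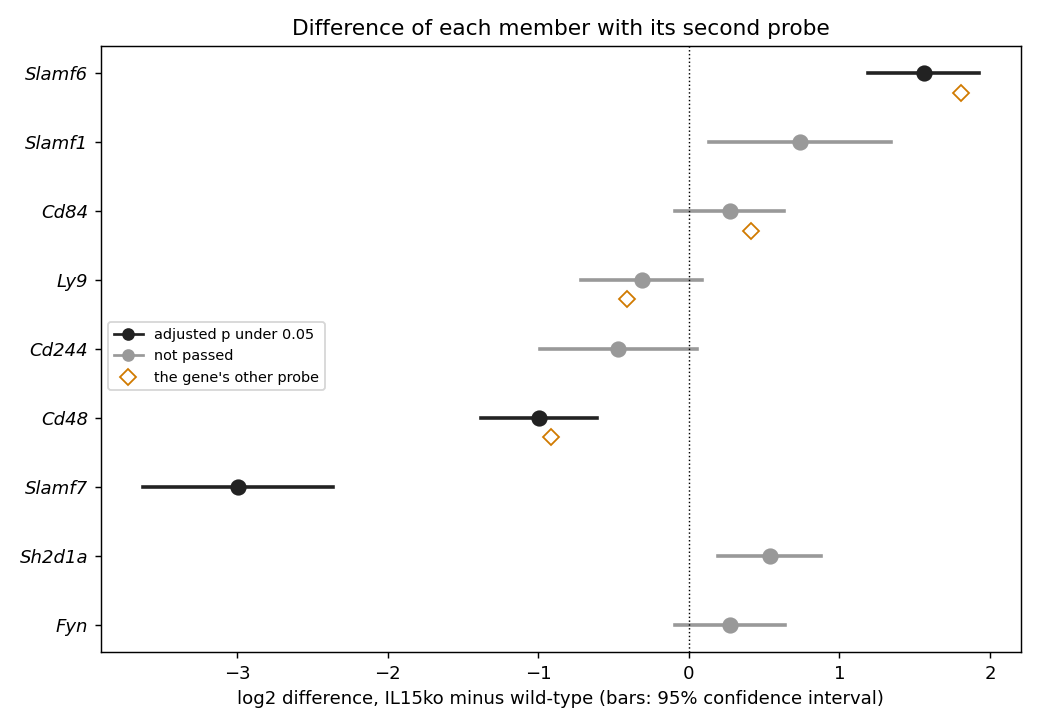
The horizontal axis gives the log2 difference, IL15ko minus wild-type. Circles are the brightest probe of each gene with its 95% confidence interval, dark where the adjusted p is under 0.05, and open diamonds are the other probe where a gene has 2. The intervals of Slamf7, Slamf6 and Cd48 lie farthest from 0 among the 9 members, and each second probe lies on the same side of 0 as the first.

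For the 4 genes with a second probe (Slamf6, Ly9, Cd48 and Cd84), both probes gave the same sign. Tested singly, 3 of the 13 probes passed, both of Slamf6 and that of Slamf7, beside 2.74% of all probes tested.

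Neither intracellular partner passed. Sh2d1a, which encodes SAP, had 0.78 and 0.58 on IL15ko arrays 1 and 2, against 0.17, 0.06 and 0.20 on wild-type arrays 1, 2 and 3. Both IL15ko arrays were above all wild-type arrays. The log2 difference was 0.54 ± 0.13 (SE, 95% confidence interval 0.20 to 0.88), or 1.45-fold, and it missed the threshold (adjusted p = 0.0797). It passed in 2 of 18 alternative settings. Fyn had -1.49 and -1.39 on the IL15ko arrays, against -1.70, -1.86 and -1.57 on the wild-type arrays. Its log2 difference was 0.27 ± 0.14 (-0.09 to 0.64, adjusted p = 0.286). The interval leaves room for a rise of up to 1.56-fold and does not show that Fyn was the same in both groups. Of the SAP-like adaptors EAT-2, which couple SLAM receptors to other signals in NK cells, the probes of Sh2d1b1 and Sh2d1b2 were detected on 0 arrays.

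The 7 receptor genes lie side by side on chromosome 1 in the order Cd244, Ly9, Slamf7, Cd48, Slamf1, Cd84 and Slamf6, per the RefSeq annotation of assembly GRCm38.p6. Of the 8 genes this stretch holds that the annotation calls protein-coding, only Tma7-ps, between Cd48 and Slamf1, is not a member, and it was not among the tested genes. The differences sorted by position: the first 4 receptors had log2 differences of -0.47, -0.31, -2.998 and -0.995, and the last 3 had 0.74, 0.27 and 1.56. Only Slamf7, Cd48 and Slamf6 passed, so the direction of the other 4 is not established. Of the 3 protein-coding genes listed on each side of the stretch, 4 were tested. Alyref2, Vangl2, Nhlh1 and Ncstn had log2 differences of 0.25 ± 0.23, 0.17 ± 0.44, -0.15 ± 0.26 and -0.68 ± 0.61 (SE), with Ncstn detected on 4 arrays. Limma called 0 of these 4, and 0 had an unadjusted p under 0.05. With such SEs this does not show that they were the same in both groups. The pattern was seen after the values were known and was not tested.

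**Figure D3:**
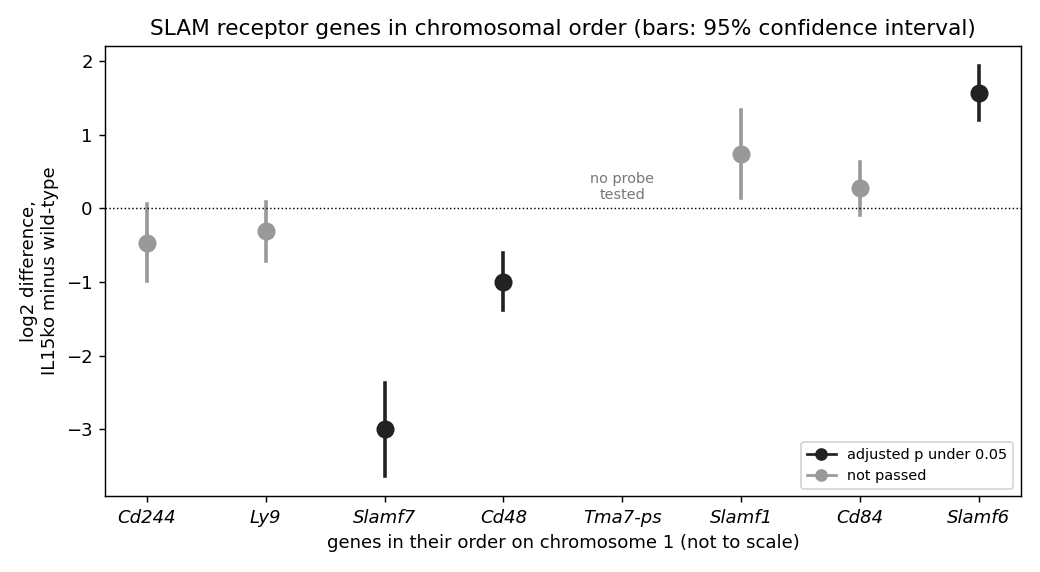
The 8 genes from Cd244 to Slamf6 stand on the horizontal axis in their order on chromosome 1, not to scale, with the log2 difference (IL15ko minus wild-type) and its 95% confidence interval on the vertical axis. Dark points passed the test. The 4 receptors from Cd244 to Cd48 lie below 0 and the 3 from Slamf1 to Slamf6 lie above it.

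RefSeq start-site sequences were found for 7 of the 9 members. Those of Slamf6, which rose, and of Slamf7 and Cd48, which fell, are shown since these are the members that passed. Each runs 5′ to 3′ from 250 bases before to 50 bases after the gene's start, in build GRCm38.p6, with Slamf6 at chr1:171917212-171917511 (plus strand), Slamf7 at chr1:171648950-171649249 (minus strand) and Cd48 at chr1:171681742-171682041 (plus strand). Capitals mark matches on either strand to 4 short motifs: TTCNNNGAA (STAT5), GGTGTG (T-box factors), TAACNG (Myb) and CANNTG (E proteins).
Slamf6: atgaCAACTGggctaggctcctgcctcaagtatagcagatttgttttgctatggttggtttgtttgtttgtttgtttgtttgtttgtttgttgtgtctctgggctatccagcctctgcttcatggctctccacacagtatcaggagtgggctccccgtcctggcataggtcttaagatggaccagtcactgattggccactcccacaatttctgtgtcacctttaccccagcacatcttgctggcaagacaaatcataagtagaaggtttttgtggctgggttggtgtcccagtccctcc
Slamf7: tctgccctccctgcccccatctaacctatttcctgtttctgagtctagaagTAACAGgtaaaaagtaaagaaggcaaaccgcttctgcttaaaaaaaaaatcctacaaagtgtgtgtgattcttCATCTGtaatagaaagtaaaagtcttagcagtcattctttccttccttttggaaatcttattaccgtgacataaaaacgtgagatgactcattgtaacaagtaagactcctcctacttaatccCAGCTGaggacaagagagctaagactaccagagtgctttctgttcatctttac
Cd48: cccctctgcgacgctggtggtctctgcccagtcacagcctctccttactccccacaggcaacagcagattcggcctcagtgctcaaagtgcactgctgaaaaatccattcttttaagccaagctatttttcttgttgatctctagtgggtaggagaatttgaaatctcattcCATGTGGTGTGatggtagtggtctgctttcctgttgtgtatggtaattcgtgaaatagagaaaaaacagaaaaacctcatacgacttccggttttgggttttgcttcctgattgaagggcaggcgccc
TTCNNNGAA was in 0 of the 7 members' sequences, beside 8.3% of the 32851 sequences in the table. GGTGTG was in 2 (Cd48 and Fyn), beside 19% of the table, and TAACNG was in 2 (Slamf1 and Slamf7), beside 23.3%. CANNTG was in all 7, beside 72.3%, and in Cd48 it overlaps the GGTGTG match. Slamf6 holds only 1 match, a CANNTG that starts 246 bases before the gene's start. In Slamf7, TAACNG starts 199 bases and CANNTG starts 126 and 3 bases before it. Such matches are a description of letters in these windows, and no binding was measured.

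The other genes of the pathway were a mixed group. The list held 33 genes, of which 29 were tested, and 2 rose, 1 fell and 26 did not pass, beside 3.75% higher and 3.58% lower of all tested genes. At an unadjusted p under 0.05 there were 12 of 29, beside 27.5% of all tested genes, and the groups did not overlap in 19, beside 47.2%. Their median log2 difference was -0.15, beside 0.01 over all tested genes. The 4 not tested, Sh2d1b1, Sh2d1b2, Slamf8 and Slamf9, were detected on 0 arrays. The number of calls changed with the arrays: it was 0 without wild-type 1, and 1 without wild-type 2 or without IL15ko 2.

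The genes that rose are transcription factors of the NKT lineage. Zbtb16, which encodes PLZF and whose induction in mouse thymocytes is helped by SLAM and SAP signals, had 3.00 and 3.28 on IL15ko arrays 1 and 2, against 1.74, 1.73 and 1.46 on wild-type arrays 1, 2 and 3. It rose by 1.501 ± 0.16 on the log2 scale (limma adjusted p = 0.0161). Myb, which mouse double-positive thymocytes need to become NKT cells, had 0.54 and 0.67 on the IL15ko arrays, against -0.97, -1.13 and -1.14 on the wild-type arrays. Its rise was 1.69 ± 0.13 (adjusted p = 0.00852). For both genes the groups were far apart. Egr2, another factor of this lineage, had a log2 difference of 0.39 ± 0.16 (adjusted p = 0.185).

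The gene that fell was Malt1, the paracaspase that acts with BCL10 to link PKC-theta to NF-kappa-B. It had -1.56 and -1.47 on IL15ko arrays 1 and 2, against -0.35, -0.46 and -0.45 on wild-type arrays 1, 2 and 3. Its log2 difference was -1.09 ± 0.12 (limma adjusted p = 0.0164), with the groups far apart. Neither Bcl10 nor Prkcq passed. The log2 difference of Bcl10 was 0.01 ± 0.29 (adjusted p = 0.982) and that of Prkcq, which encodes PKC-theta, was 0.12 ± 0.12 (adjusted p = 0.577). The NF-kappa-B genes Rela and Nfkb1 had -0.48 ± 0.14 (adjusted p = 0.103) and -1.11 ± 0.37 (adjusted p = 0.137), and the other probe of Nfkb1 had -0.23. Dok1 and Dok2, adaptors that restrain Ras, had -0.44 ± 0.12 (adjusted p = 0.0876) and -0.42 ± 0.14 (adjusted p = 0.136). Cbl, a ubiquitin ligase of T-cell signalling, had -0.73 ± 0.21 (adjusted p = 0.107), and Dgka, the diacylglycerol kinase that SAP holds in check, had 0.52 ± 0.17 (adjusted p = 0.128). In Tcf12, which encodes the E protein HEB, the probes disagreed, with 0.07 for the brightest and -1.12 for the other, and in Nfatc1 they had -0.52 and 0.24.

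**Figure D4:**
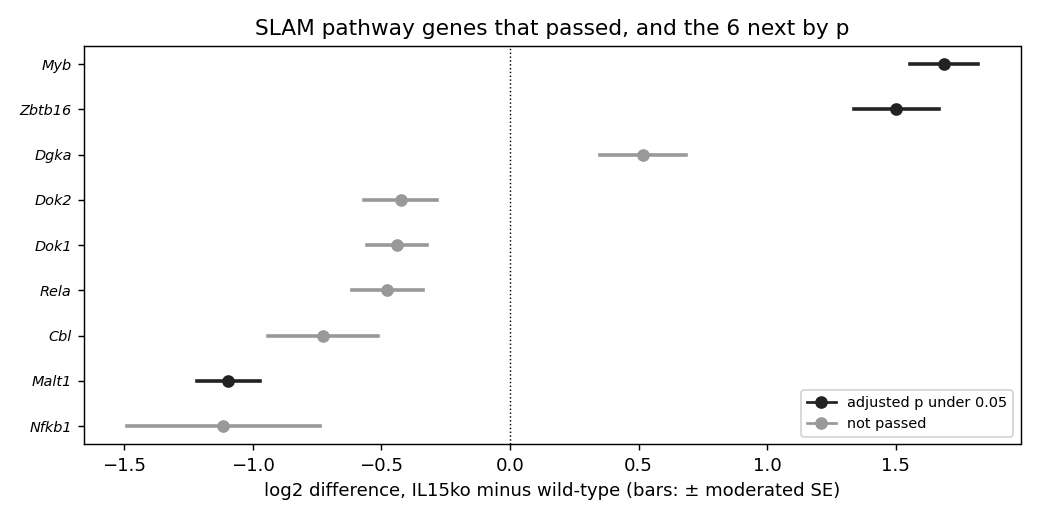
The 9 pathway genes that passed or had the smallest p among the others are listed on the vertical axis by their log2 difference (IL15ko minus wild-type, horizontal axis), with bars of ± 1 moderated SE. Dark points passed the test: Myb and Zbtb16 lie at the top right and Malt1 near the bottom left, while 6 genes did not pass.

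The genes whose profile over the 5 arrays was nearest to that of Slamf6, by root-mean-square distance between mean-centred log2 values among 9758 genes well above background on all arrays, were Tmie (0.0441) and Cntnap1 (0.0814). Their log2 differences were 1.53 and 1.66. Nearest to Slamf7 were Klra6 (0.168), a Ly49 receptor gene, Icosl (0.220) and Dennd4a (0.225), with log2 differences of -2.83, -2.78 and -3.10. The distances to these neighbours of Slamf7 were larger than those to Tmie and Cntnap1. This distance counts the size of a difference, so the similar log2 differences follow from the choice of genes.

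The lists of other cell types held both detected and undetected genes. Of 8 B-cell genes, Cd79a, Ms4a1, Pax5 and Ebf1 were detected on 0 arrays, and limma called 0 of the 2 tested (1 at an unadjusted p under 0.05). Those 2, Cd79b and Cd22, were detected on all 5 arrays, with log2 differences of 0.92 (adjusted p = 0.0882) and -0.03 (adjusted p = 0.961). The summed linear level of all 8 genes was 0.181 to 0.283 in IL15ko and 0.145 to 0.253 in wild-type. Of 9 myeloid genes with a probe, Itgax, Lyz2, Adgre1 and Flt3 were detected on 0 arrays, and limma called 0 of the 3 tested (1 at an unadjusted p under 0.05). Csf1r, the receptor of a macrophage growth factor, was detected on all 5 arrays with a log2 difference of -2.29, just short of the threshold (adjusted p = 0.0509). The brighter of 2 probes of Siglech, a marker of plasmacytoid dendritic cells, was bright on all 5 arrays, with a log2 difference of -0.20 (adjusted p = 0.647). Its other probe is not reported here, and whether the signal came from such cells was not tested. The summed level of the list, 30.3 to 40.7 in IL15ko and 30.9 to 48.6 in wild-type, came almost wholly from the brighter probe of Siglech. Of 7 thymic epithelial genes 3 were tested. Ly75 passed as lower. It was detected on 2 wild-type arrays and 0 IL15ko arrays, so it entered the test only through the group where it is high. Epcam entered in the same way, with a log2 difference of -1.73 (limma adjusted p = 0.223). Krt5, detected on 4 arrays, had one of -0.07 (adjusted p = 0.908). Psmb11 was detected on 1 array, and Foxn1, Krt8 and Aire were detected on 0 arrays. The summed level of all 7 genes was 0.0351 to 0.0669 in IL15ko and 0.0455 to 0.105 in wild-type. The part of other cell types in the results was not tested.

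**Figure D5:**
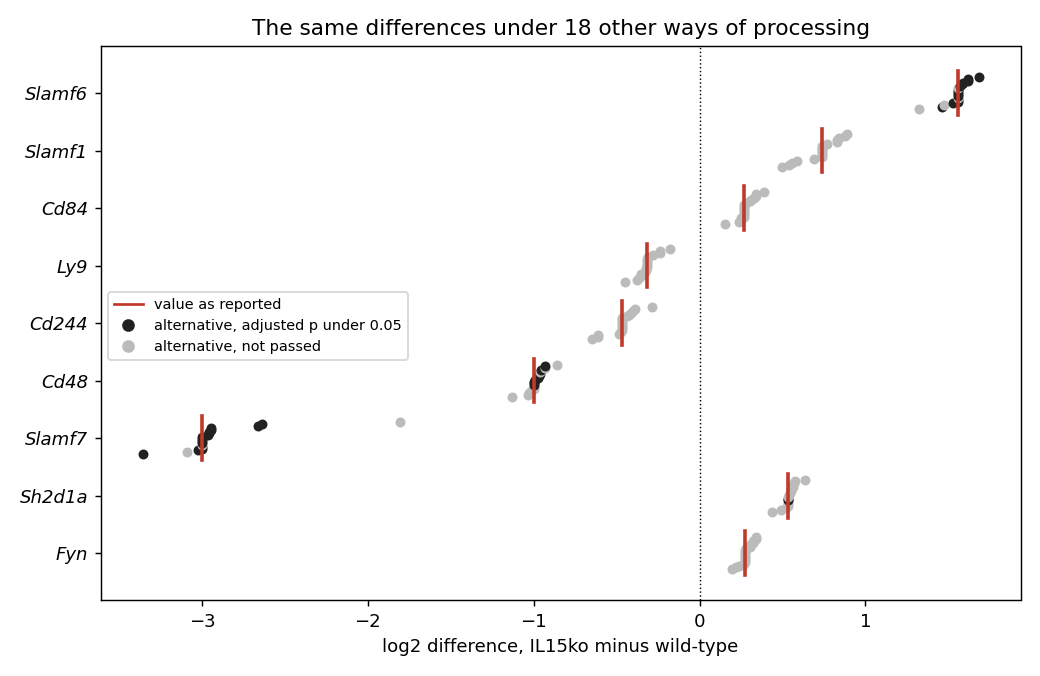
Each row is a member, the red line is its log2 difference as reported (IL15ko minus wild-type, horizontal axis) and the 18 points are the same difference under other settings, dark where the adjusted p is under 0.05. No point of any member crosses 0, while the calls of Slamf6, Slamf7 and Cd48 hold in 14, 15 and 9 of 18 settings.

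Over these 18 settings, which include leaving out each array, no member changed sign. Slamf6 had log2 differences between 1.32 and 1.68, Slamf7 between -3.36 and -1.81 and Cd48 between -1.13 and -0.86. An exact two-sided permutation test of a gene over 3 and 2 arrays cannot give a p below 0.1.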

How the data were processed

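The scanner files hold linear spot intensity values from Agilent Feature Extraction 10.7.1.1, per the file headers, whose processed signal is background-subtracted within each array and not scaled between arrays. Limma is named in the submitters' processing notes. A further table deposited by the authors gives intensities equal to spot median minus local background up to a constant per array (column medians 26.4 and 16.2 in IL15ko 1 and 2, 27.2, 24.6 and 29.0 in wild-type 1 to 3), and the setting behind that constant stays unknown. It served as an alternative.

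The values analysed were log2 processed signals minus each array's 75th percentile taken over the 18517 probes that every array detected, since under 50% of probes were detected on each. Control and outlier spots were dropped and repeat spots averaged. RefSeq accessions, matched without versions to the GRCm38.p6 annotation, gave 1 symbol to 26425 of 55681 probes and several to 0, so that 29256 have no name here. A gene was represented by its brightest probe and tested if at least 2 arrays detected that probe. IL15ko was compared with wild-type with no covariates in limma 3.58.1 (lmFit, eBayes; R 4.3.3), with Benjamini-Hochberg adjustment over all tested genes and a threshold of 0.05. The fit was tested on simulated data. All arrays were on 1 slide with 1 scan time in the headers, which leaves no slide or scan batch to test. The files name build mm9 and the annotation is of another build, so array coordinates are not given. The number of arrays limits the precision.

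Named genes were the members, pathway genes that passed, the 6 others with the smallest p, marker genes, and the 3 nearest profiles to Slamf6 and Slamf7. Some of these are not reported here. Bcl10, Prkcq, Egr2, Tcf12, Nfatc1 and the genes beside the SLAM stretch were added after their values were seen. The members and lists were chosen with earlier results of these data known.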

Additional observations from a re-analysis of the deposited data

How the results depend on the processing

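Of 378 values recomputed over 18 alternatives, 321 kept their direction and their side of the threshold (for counts, stayed within 1.5 times), 32 lost the threshold, 5 gained it, 20 counts moved further and 0 reversed. The causes were not tested, except that a filter setting changes the number of genes tested. With normexp (offset 50, on spot medians, since the files hold no mean signal) the median of all genes shifted by 0.20 and limma called 0 genes higher and 1 lower, 0 members and 0 pathway genes; Slamf6 had a log2 difference of 1.32 (adjusted p = 0.0564), Slamf7 one of -1.81 (adjusted p = 0.117) and Cd48 one of -0.96 (adjusted p = 0.0915), or 1.12, -2.01 and -1.16 relative to the shift. Without the filter on dim probes, 0 genes were higher and 3 lower among 20005, with 0 members and 0 pathway genes, and adjusted p of 0.0953 for Slamf6 (1.56), 0.0813 for Slamf7 (-2.998) and 0.149 for Cd48 (-0.995). With a trended, robust prior 1516 genes (820 higher, 696 lower) and 5 pathway genes were called, and Sh2d1a passed with 0.54 (adjusted p = 0.0244), as it did among probes detected on all arrays (0.54, adjusted p = 0.0497). With wild-type 1 and 2 averaged into 1 sample 168 genes (74 higher, 94 lower) and 1 pathway gene were called, and Cd48 had -1.03 (adjusted p = 0.0859). With every probe on its own Cd48 (-0.995) had an adjusted p of 0.0572. Leaving out each array in turn gave 33 to 911 called genes, 0 to 3 members and 0 to 4 pathway genes, with log2 differences of 1.47 to 1.62 for Slamf6, -3.36 to -2.64 for Slamf7 and -1.13 to -0.86 for Cd48. The lowest counts came without wild-type 1. The groups share only 2 replicate numbers, and no label says what a number marks, so the samples were not treated as paired. Deviations of same-numbered arrays correlated at -0.13 for number 1 and 0.21 for number 2, which decides nothing, since the deviations of 2 IL15ko arrays mirror each other. With the number as a replicate block 398 genes were called (149 higher, 249 lower), and Cd48 had -0.93 (adjusted p = 0.0724). Dim probes such as that of Slamf1, near the detection limit on IL15ko 2 and wild-type 2, have the least certain values.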
